A study of Drosophila melanogaster with 26 samples.

Results

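The digestive enzyme genes described here are the 38 features, of 14659 in the table, whose names mark them as Jonah proteases (Jon followed by a cytological position), trypsins named by a Greek letter, lysozymes of the LysA-to-Z series, amylases (Amy) or Lvp maltases. The names comprise 16 Jonah proteases, 11 trypsins, 6 lysozymes, 2 amylases and 3 Lvp maltases.

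In the larva these genes are best known from the midgut, where digestive enzymes are secreted into the gut lumen. Trypsins and the chymotrypsin-like Jonah proteases cut dietary protein, lysozymes cut the peptidoglycan of bacterial cell walls, amylases cut starch, and the Lvp genes, named for larval visceral proteins, encode maltases that release glucose from disaccharides. The fat body, the tissue sequenced here, stores fat and glycogen and secretes the larval serum proteins, and is not a digestive organ.

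Fat bodies came from female Drosophila melanogaster larvae of the wandering stage, reared on high-sugar food (0.7 M sucrose) or on control food (0.15 M sucrose), and RNA was sequenced after removal of ribosomal RNA. All larvae carried a UAS-Dcr2 transgene, for the double-stranded RNA nuclease Dicer-2, and a GAL4 driver active in fat body, cg or r4. The fathers were of the VDRC stock w1118 (listed in the strain label as stock 60000) or of the VDRC stock 60100. There were 6 high-sugar and 6 control libraries of w1118 crossed to cg, 3 and 3 of w1118 crossed to r4, and 4 and 4 of 60100 crossed to r4, 26 in all. The larvae served as driver controls for RNAi crosses, which are not analysed here. Fat bodies were obtained by fine dissection or by shearing and centrifugation, and the labels do not say which was used for which library.

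Libraries are named by the number in their titles and fall into 4 sets, which the deposited table scaled separately. Libraries 13-21 and 49-54 are w1118 cg, libraries 55-63 are w1118 r4, and libraries 67-92, comprising numbers 67-76 and 83-92, are 60100 r4. Set, stock and driver therefore cannot be told apart, except that 2 sets share w1118 cg. A value of 1 stands for the upper quartile of its library. Values compare diets within a set, and levels in different sets are not on a common scale. Depth is unknown. Between 6183 and 8709 features were above 0 in a library, with fewer on high sugar in libraries 49-54 (6500 to 6636 against 7086 to 7934) and 55-63 (6183 to 6625 against 7124 to 7538). Of 8 fat body markers 7 were tested, and the summed value of the list was at least 5269 in every library. That sum was 10472 to 12236 on high sugar in libraries 49-54, against 5269 to 7162 in controls, and 9397 to 13045 on high sugar in libraries 67-92, against 13867 to 14901. In those sets 3 and 0 of the 7 were higher and 0 and 2 were lower. In libraries 13-21 the sum was 6903 to 8376 on high sugar, against 8341 to 9572 in controls (1 of 7 lower), and in libraries 55-63 it was 8928 to 10437, against 9058 to 12414 (2 of 7 lower). The part of these markers in the members' results was not tested. The labels do not say whether replicates came from separate cultures, so p-values measure the spread between these libraries. In whole tissue, fewer cells of a type and less RNA per cell cannot be told apart.

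Of the 38 members, 18 had a mean of at least 1 over the 26 libraries and were tested, 15 were above 0 in some library but below that mean, and 5 were at 0 in every library. The tested members were 9 Jonah proteases, 5 trypsins and 4 lysozymes. Neither amylase nor any Lvp gene was tested. The features at 0 throughout were Jon44E, lambdaTry, kappaTry, zetaTry and LvpD. The lowest mean among tested members was 1.55 (LysE) and the highest among untested members was 0.757 (Jon99Fi). Summed over all members, the value ran from 3.24 to 243, which was 0.00807% to 0.453% of a library's total.

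**Figure D1:**
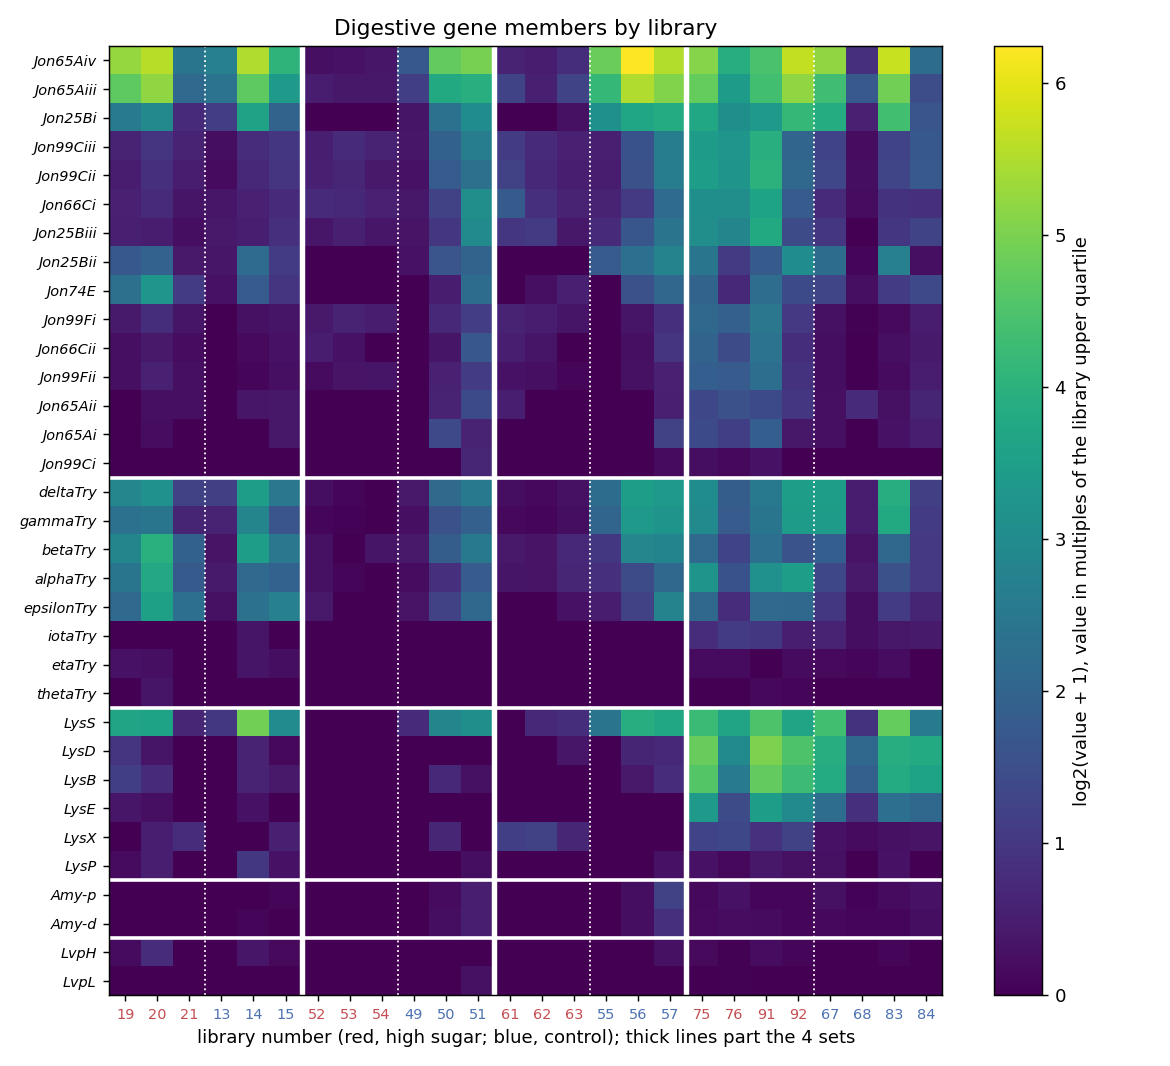
Value of each of the 33 members above 0 (rows, grouped by family) in each library (columns), as log2(value + 1). High-sugar libraries (red numbers) stand left of control libraries (blue numbers) in each set. Rows such as Jon65Aiv are dark in all high-sugar libraries of sets 49-54 and 55-63 and bright in library 83, while LysD, LysB and LysE are bright in set 67-92 alone.

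Over all libraries, with the set as a term, none of the 18 tested members passed the threshold of an adjusted p of 0.05 in either direction (limma, Benjamini-Hochberg), and 0 had an unadjusted p below 0.05. In the same test 23.1% of all 2428 tested features were higher and 13.4% were lower on high sugar. The changes of the members ran from -1.47 (Jon65Aiv, SE 0.72, adjusted p = 0.108) to 0.43 (Jon66Ci, SE 0.34, adjusted p = 0.324) on the log2(value + 1) scale, with 9 above 0 and 9 below 0. Their median was -0.01, against 0.06 over all tested features. The alternatives did not all give 0. There were 4 members lower without control library 68, 7 lower without libraries 67-92, 1 lower with a pseudocount of 0.1 and 1 higher with array weights. Of the 2428 tested features, 327 were lower without control 68, 201 without libraries 67-92 and 342 with that pseudocount. With array weights 556 were higher.

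Counts by set were as follows. On high sugar, 7 of the 18 fell and 0 rose in libraries 55-63, where 5.19% of all tested features were lower and 17.8% higher. In libraries 49-54, 2 fell and 0 rose, where 10.2% of features were lower and 24.2% higher. The share that fell there was near that of all features, and the count ran from 0 without control 50 or 51 to 11 without control 49. In libraries 67-92, 6 rose and 0 fell, where 16.8% of features were higher and 14.8% lower. Of these 6, LysE passed the filter only through its values in that set. Libraries 67 and 83, and 75 and 91, were closer to each other than other pairs of their set and diet and may share a source, which the labels do not say. With each of these pairs averaged to 1 sample, 5 members rose in that set. Of the 2428 features 266 were then higher and 235 lower, against 409 and 360 in the main fit. In libraries 13-21, 0 rose and 0 fell, where 2.14% were higher and 5.85% lower, and 1 member (alphaTry) had an unadjusted p below 0.05.

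The test of the difference itself, an F test over the diet effects of the 4 sets, passed for 12 of the 18 members, against 37.0% of all tested features. They were 8 Jonah proteases (Jon65Aiv, Jon65Aiii, Jon25Bi, Jon25Bii, Jon25Biii, Jon66Ci, Jon99Cii and Jon99Ciii) and 4 trypsins (alphaTry, deltaTry, gammaTry and epsilonTry). No tested lysozyme passed it. With no filter on low values 16 of 33 members passed (21.3% of features), and deltaTry, gammaTry and epsilonTry no longer passed (adjusted p = 0.0829, 0.0816 and 0.0550). The members gained in that fit were the lysozyme LysX (adjusted p = 0.00699), iotaTry, Jon99Fi, Jon99Fii, Jon66Cii, Jon65Aii and Jon65Ai. The median change of the 18 was 0.14 in libraries 13-21, -1.04 in libraries 49-54, -1.21 in libraries 55-63 and 0.97 in libraries 67-92, against -0.02, 0.12, 0.11 and 0.03 over all tested features. In libraries 67-92 all 18 changes were above 0, but 16 were without control library 68 and 13 with array weights. LysB, LysD and LysE are among the 18 and enter these medians, and they passed the filter only through their values in libraries 67-92. Near-identical neighbouring genes are counted separately here, so these members are not independent of each other.

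**Figure D2:**
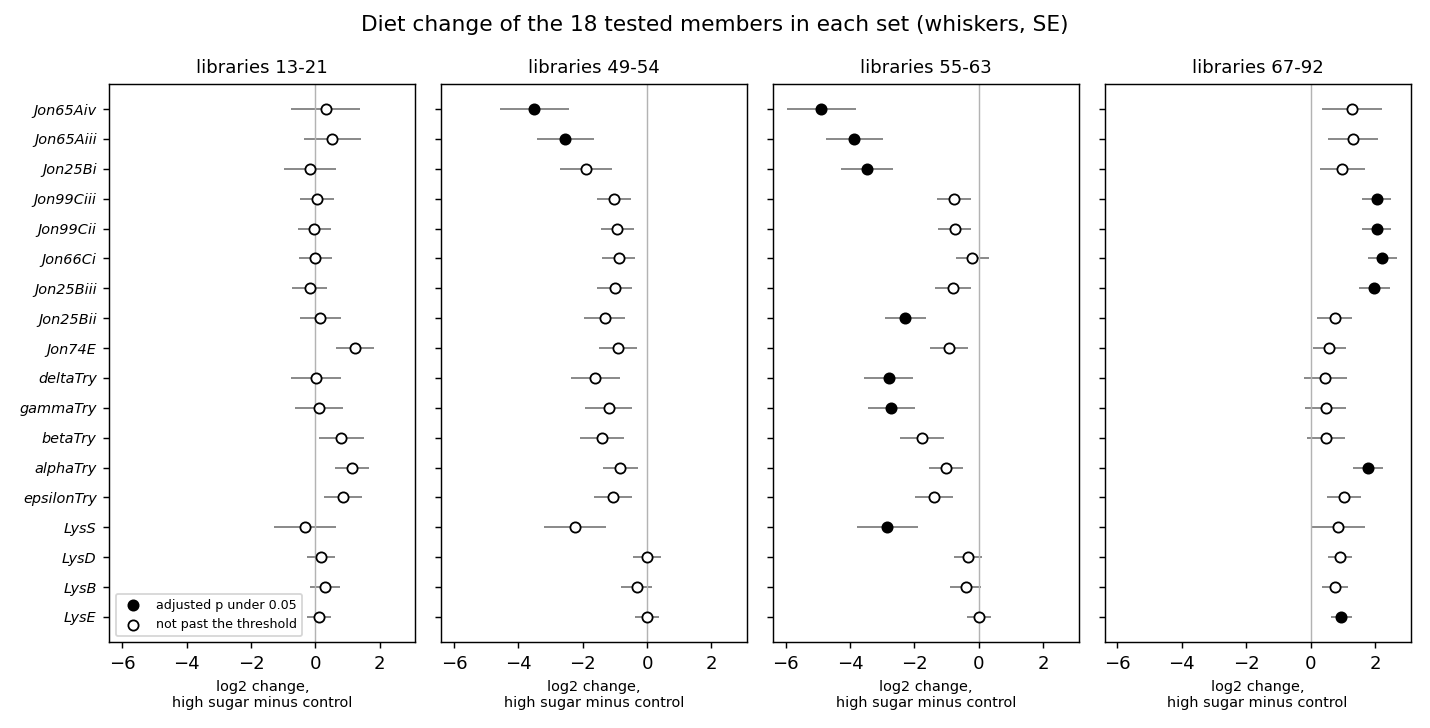
Change of each tested member on the log2(value + 1) scale (high sugar minus control, horizontal axis) in each of the 4 sets, with its SE. Filled points passed the threshold. The filled points lie left of 0 in libraries 49-54 and 55-63 and right of 0 in libraries 67-92, and no member is filled on both sides.

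Jon65Aiv and Jon65Aiii, Jonah proteases of the 65A cluster, had the highest values. Jon65Aii and Jon65Ai of that cluster were untested and did not exceed 1.91 and 2.66. Jon65Aiv, a chymotrypsin-like protease, had 0.514, 0.413 and 0.774 in high-sugar libraries 61 to 63, against 27.5, 74.7 and 45.3 in control libraries 55 to 57. The diets did not overlap, and every control library was far above every high-sugar one. The change was -4.90 (SE 1.07, adjusted p = 0.00232, limma), lower in 3 of 3 high-sugar libraries than in any control. In libraries 49-54 it had 0.204, 0.226 and 0.294 on high sugar, against 2.30, 25.8 and 30.4 in controls. The high-sugar libraries were again uniformly low, and control library 49 was much nearer to them than controls 50 and 51 were. The change was -3.50 (SE 1.07, adjusted p = 0.0148), and without control library 50 or 51 it no longer passed (adjusted p = 0.0683 and 0.0739).

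The same protease did not separate the diets in the other sets. In libraries 67-92 Jon65Aiv had 33.3, 13.9, 20.97 and 49.7 on high sugar (libraries 75, 76, 91 and 92), against 35.8, 0.778, 51.9 and 3.59 in controls (67, 68, 83 and 84). Control 83 was above all high-sugar values, control 67 was above all but library 92, and controls 68 and 84 were below all of them, so the controls spanned the whole range (change 1.29, SE 0.93, adjusted p = 0.299). In libraries 13-21 it had 37.0, 46.4 and 4.40 on high sugar, against 5.55, 44.6 and 15.7 in controls. Each diet held high and low libraries there (change 0.32, SE 1.07, adjusted p = 0.942).

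Jon65Aiii, its neighbour and another chymotrypsin-like protease, showed the same ordering. It had 1.42, 0.474 and 1.42 on high sugar in libraries 55-63, against 16.7, 44.2 and 32.3 in controls, with no overlap (change -3.86, SE 0.90, adjusted p = 0.00367). In libraries 49-54 it had 0.398, 0.320 and 0.326 on high sugar, against 1.24, 12.9 and 14.3 in controls. The change was -2.54 (SE 0.90, adjusted p = 0.0326), and it failed the threshold with any single library of that set left out except control 49.

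Among the 3 proteases of the 25B cluster, Jon25Bi and Jon25Bii went with Jon65Aiv and Jon65Aiii, and Jon25Biii did not. Jon25Bi had 0, 0 and 0.218 on high sugar in libraries 55-63, against 7.84, 12.0 and 13.4 in controls. The change was -3.47 (SE 0.81, adjusted p = 0.00367), with no overlap. It was listed at 0 in all 3 high-sugar libraries of set 49-54, against 0.275, 4.04 and 7.24 in controls, and did not pass there (change -1.91, SE 0.81, adjusted p = 0.0721). Jon25Bii fell in libraries 55-63 (change -2.28, SE 0.64, adjusted p = 0.0119), where it was listed at 0 in all 3 high-sugar libraries, against 2.44, 3.86 and 5.91 in controls.

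Jon66Ci, Jon99Cii, Jon99Ciii and Jon25Biii, chymotrypsin-like proteases of the 66C, 99C and 25B clusters, were higher on high sugar in libraries 67-92. Jon66Ci had 7.67, 7.49, 11.3 and 2.52 on high sugar (75, 76, 91 and 92), against 0.715, 0.147, 0.876 and 0.784 in controls. All 4 high-sugar libraries lay above all 4 controls, with library 92 the lowest of them. The change was 2.23 (SE 0.44, adjusted p = 0.00112).

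Jon99Cii had 10.3, 8.34, 15.001 and 3.33 on high sugar in that set, against 1.51, 0.173, 1.46 and 2.35 in controls. The diets did not overlap, but library 92 was close to control 84 (change 2.06, SE 0.45, adjusted p = 0.00219). Jon99Ciii (2.05, SE 0.46, adjusted p = 0.00274) and Jon25Biii (1.97, SE 0.48, adjusted p = 0.00470) rose by similar amounts. With numbers 83-92 alone, 2 libraries a diet, these 4 proteases kept their direction and none passed (adjusted p = 0.114 to 0.225). In the w1118 sets they had no call. Jon66Ci, for 1, had 0.688, 0.642 and 0.495 on high sugar in libraries 49-54, against 0.315, 1.32 and 7.52 in controls.

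Jon74E, which stands alone in the genome, passed no test. Its largest change was in libraries 13-21, where it had 3.94, 8.75 and 1.16 on high sugar, against 0.234, 2.49 and 0.905 in controls. The diets overlapped (change 1.22, SE 0.59, adjusted p = 0.257).

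**Figure D3:**
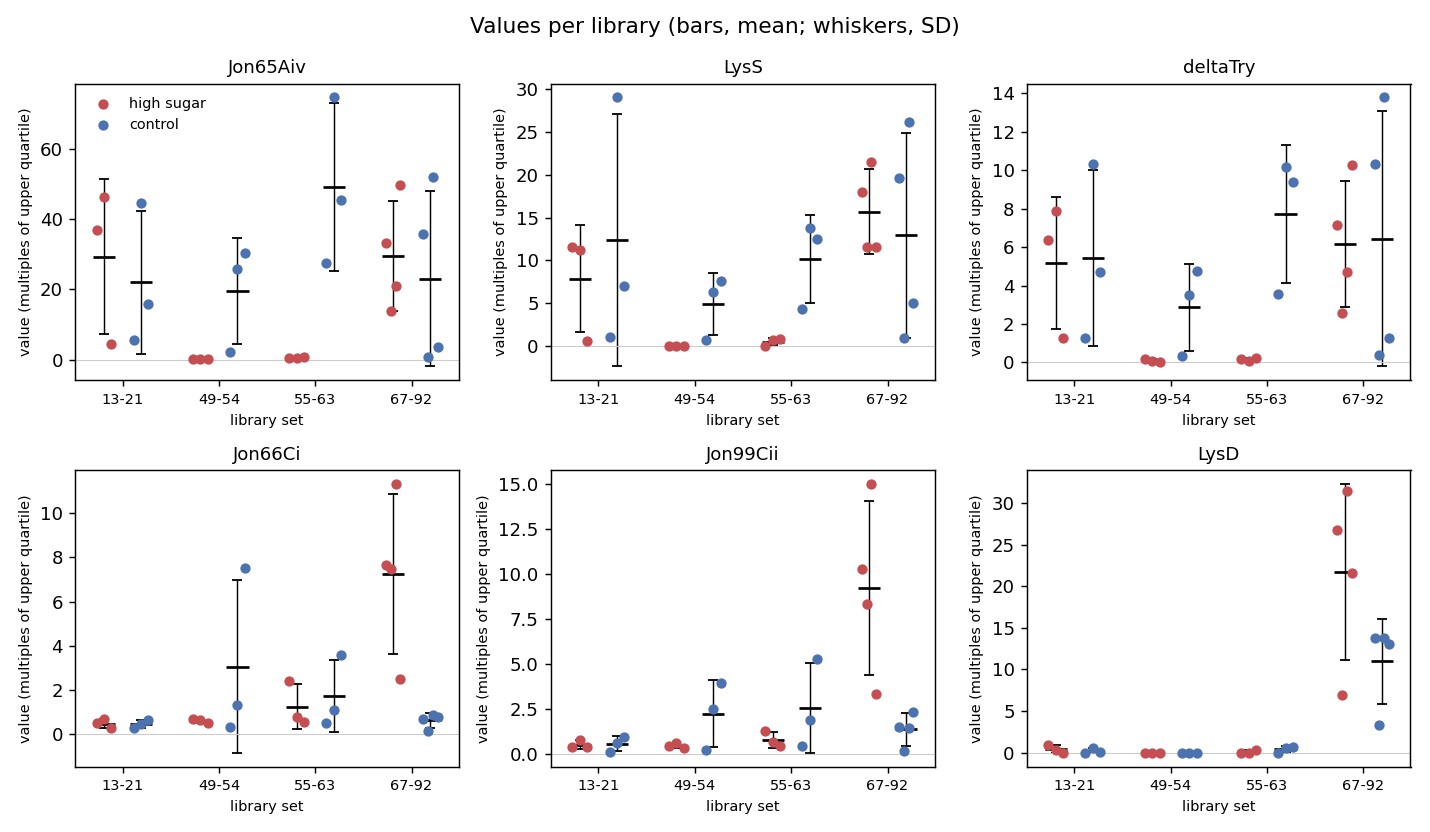
Values of 6 members in each library (vertical axis, multiples of the library's upper quartile), with the mean (bar) and SD (whisker) of each diet in each set, high sugar left of control. Jon65Aiv, LysS and deltaTry (top) lie near 0 on high sugar in libraries 49-54 and 55-63, and Jon66Ci and Jon99Cii (bottom) lie above all controls on high sugar in libraries 67-92.

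Of the 5 tested trypsins, deltaTry and gammaTry fell in libraries 55-63 and alphaTry rose in libraries 67-92. deltaTry had 0.181, 0.0965 and 0.211 on high sugar in libraries 55-63, against 3.58, 10.2 and 9.37 in controls, with no overlap (change -2.80, SE 0.77, adjusted p = 0.0109). gammaTry had 0.0956, 0.0792 and 0.184, against 3.08, 9.42 and 8.42 in controls (change -2.72, SE 0.74, adjusted p = 0.00977). In libraries 67-92 gammaTry had 6.88, 2.46, 4.41 and 9.88 on high sugar, against 9.72, 0.386, 12.7 and 1.15 in controls. As for Jon65Aiv, controls 67 and 83 were high and controls 68 and 84 low, so the diets overlapped widely (change 0.47, SE 0.64, adjusted p = 0.597).

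alphaTry had 8.38, 1.96, 7.91 and 10.3 on high sugar in libraries 67-92, against 1.54, 0.354, 1.90 and 1.06 in controls. The lowest high-sugar library, 76, was just above the highest control, 83. The change was 1.77 (SE 0.46, adjusted p = 0.00734), and it did not pass in numbers 67-76 alone or 83-92 alone (adjusted p = 0.116 and 0.0521). In libraries 13-21 alphaTry had 4.35, 12.6 and 2.41 on high sugar, against 0.373, 3.35 and 2.91 in controls, which overlapped (change 1.14, SE 0.54, adjusted p = 0.238).

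betaTry passed no test, with its largest change in libraries 55-63 (-1.76, SE 0.69, adjusted p = 0.0680). There it had 0.347, 0.252 and 0.622 on high sugar, against 1.03, 6.39 and 6.03 in controls, with no overlap. epsilonTry had no call within a set, though its diet effect differed between sets (adjusted p = 0.0307). Of the untested trypsins iotaTry reached 1.15, in high-sugar library 76, and etaTry and thetaTry did not exceed 0.268.

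The lysozymes split into LysS, found in all 4 sets, and LysB, LysD and LysE, found at high values in libraries 67-92. LysS had 0, 0.636 and 0.756 on high sugar in libraries 55-63, against 4.29, 13.8 and 12.5 in controls. The diets did not overlap (change -2.84, SE 0.95, adjusted p = 0.0351). This call was lost without any of the single libraries 56, 57, 61, 62 or 63 (adjusted p = 0.0660 to 0.110). In libraries 49-54 LysS was listed at 0 in all 3 high-sugar libraries, against 0.704, 6.28 and 7.57 in controls, and did not pass (change -2.24, SE 0.95, adjusted p = 0.0733).

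LysD had 26.8, 6.94, 31.4 and 21.6 on high sugar in libraries 67-92, against 13.8, 3.28, 13.8 and 13.02 in controls. High-sugar libraries 75, 91 and 92 were above all controls, and library 76 was below 3 of the 4. The change was 0.91 (SE 0.38, adjusted p = 0.0717). In the other 3 sets LysD did not exceed 0.918 in any library. LysB, with 22.9, 5.07, 26.004 and 18.5 on high sugar against 13.2, 2.76, 13.3 and 11.4 in controls, followed it library by library (change 0.75, SE 0.41, adjusted p = 0.166). LysB did not exceed 1.23 in the other sets. No test was made across sets, and stock 60100 and set 67-92 cannot be told apart.

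LysE was called higher in libraries 67-92 (change 0.96, SE 0.32, adjusted p = 0.0273), with 9.20, 1.74, 10.3 and 6.75 on high sugar, against 3.70, 0.777, 3.85 and 3.25 in controls. Library 76 lay below 3 controls, so the diets overlapped. The call was lost in 7 of 19 alternatives, among them leaving out control 68, or high-sugar library 75 or 91 (adjusted p = 0.0927 to 0.119). LysE stood at 0.237 to 0.344 of LysD in the 8 libraries where both could be compared, and their reads may be shared.

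LysX, named here after its values were seen, was below the filter and moved otherwise than LysS. It had 1.25, 1.37 and 0.588 on high sugar in libraries 55-63, and was listed at 0 in all 3 controls. In libraries 67-92 it had 1.38, 1.54, 0.853 and 1.29 on high sugar, against 0.227, 0.131, 0.217 and 0.266 in controls. High-sugar libraries lay above all controls in both sets. With no filter on low values LysX was called higher in both, by 1.03 (SE 0.20, adjusted p = 0.00140) and 0.90 (SE 0.17, adjusted p = 0.00140). In that fit 5.24% and 7.88% of features were called higher in these sets. LysP reached 1.02, in control library 14.

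Amylases and Lvp maltases were at the edge of detection. Amy-p was highest in control library 57, at 1.35, and was listed at 0 in all 9 high-sugar libraries of the w1118 sets. Among the w1118 controls it was at 0 in 4 of 9. Amy-d reached 0.802, also in control library 57. LvpH (current symbol Mal-A1) reached 0.725 in high-sugar library 20, LvpL (Mal-A3) was above 0 in 2 libraries and LvpD (Mal-A2) in none. With no filter none of the 4 detected genes passed a test of diet in any set.

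The 6 untested Jonah proteases above 0 had low values, and within libraries 67-92 each had its highest value on high sugar. Jon99Fi, chosen after its values were seen, had 3.27, 2.74, 4.58 and 1.05 on high sugar in libraries 67-92, against 0.204, 0.0210, 0.113 and 0.405 in controls. Over all 33 members above 0, 10 had every high-sugar value above every control value in that set and 0 had every one below, where 6.35% and 17.3% of the 10094 features above 0 did. In libraries 55-63, 1 member lay wholly above and 10 wholly below (10.2% and 15.6% of features). In libraries 49-54 it was 0 and 8 (13.3% and 16.4%), and in libraries 13-21 it was 1 and 0 (9.26% and 7.41%). With no filter 13 of the 33 were called higher in libraries 67-92 (7.88% of features), 1 lower in libraries 49-54 (10.3%) and 6 lower in libraries 55-63 (10.3%). Over all libraries 2 were higher in that fit, LysX and Jon99Fi (7.76% of features).

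Within libraries 67-92 members differed in the library where they were highest. Library 83, a control, held the highest value of Jon25Bi, Jon65Aiv, LysS, deltaTry and gammaTry. Library 91, on high sugar, held the highest value of 10 other tested members, among them Jon66Ci, Jon99Cii and LysD. Library 92, also on high sugar, held that of Jon25Bii, Jon65Aiii and alphaTry. Library 68, a control, had only 3 tested members at 1 or above, where every other library of the set had at least 15. Summed over all members, the set had 236, 111, 243 and 222 on high sugar, against 156, 14.9, 204 and 57.1 in controls.

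Many members are neighbours and near copies. In the Release 6 plus ISO1 MT gene order, all 11 trypsins lie in 1 cluster, with at most 5 protein-coding genes between neighbours. All 6 lysozymes lie in another. The ratio of some neighbours stayed within a narrower range than that of others. In libraries with both at 0.5 or above, Jon99Cii stood at 0.748 to 1.1 of Jon99Ciii and LysB at 0.730 to 1.34 of LysD. gammaTry stood at 0.416 to 0.965 of deltaTry. These pairs are uncertain as separate measurements. Other neighbours were not held together: alphaTry was 0.274 to 5.06 of betaTry and Jon25Biii 0.050 to 1.36 of Jon25Bi. Jon65Aiii was 0.472 to 3.04 of Jon65Aiv.

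Related digestive genes outside the name rule gave a mixed picture. Of 17 further trypsin- and chymotrypsin-class proteases found in the table, 4 were tested, and in libraries 55-63 3 of them fell: yip7, CG30025 and CG30031. yip7 had 0.236, 0 and 0.351 on high sugar, against 7.25, 9.04 and 8.91 in controls (change -2.98, SE 0.84, adjusted p = 0.0124). CG30025 and CG30031 neighbour gammaTry and stood at 0.815 to 1.1 and 0.881 to 1.06 of it, and are uncertain as separate measurements.

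One of 10 other lysozyme genes was tested, CG16799, and it was higher on high sugar over all libraries (change 0.55, SE 0.08, adjusted p = 2.57e-05). It had 7.57, 8.88 and 8.59 in high-sugar libraries 61 to 63, against 4.48, 4.79 and 4.50 in controls, with no overlap, the opposite direction to LysS in the same libraries. Of 9 other sugar-digesting enzyme genes found, 3 were tested. Over all libraries CG14935 rose (0.54, SE 0.12, adjusted p = 0.00118), CG30360 fell (-0.68, SE 0.13, adjusted p = 0.000265), and CG30359 had a change of 0.07 (adjusted p = 0.700). Of 18 other digestive peptidases and 15 lipases, 1 of each was tested and neither passed over all libraries. The peptidase CG4408 was higher on high sugar in libraries 49-54 (0.49, SE 0.16, adjusted p = 0.0190) and lower in libraries 67-92 (-0.53, SE 0.14, adjusted p = 0.00654), and its diet effect differed between the sets (adjusted p = 0.00558). The gut peptidoglycan recognition protein PGRP-SC2 had 82.8, 75.7, 94.3 and 86.7 on high sugar in libraries 67-92, against 29.3, 121, 33.3 and 29.3 in controls. Control library 68, lowest in the members' sum, was highest for PGRP-SC2 (change 0.95, SE 0.47, adjusted p = 0.127). In libraries 55-63 the PGRP-SC2 change was 1.42 (SE 0.54, limma adjusted p = 0.0609), above 0 where the called members fell. It was -0.53 (adjusted p = 0.482) in libraries 49-54 and -0.35 (adjusted p = 0.841) in libraries 13-21. PGRP-SC2 thus passed in no set.

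Markers of other tissues varied along with some of these results. Of 15 midgut epithelium markers found, 7 were at 0 everywhere and none reached 1 in any library. Their sum was 0.288 to 0.369 on high sugar in libraries 55-63, against 0.712 to 1.05 in controls, and 0.289 to 0.774 in libraries 49-54, against 0.928 to 1.12. In libraries 67-92 it was 0.589 to 0.842 on high sugar, against 0.749 to 1.05. In libraries 13-21 it was 1.14 to 1.59 on high sugar, against 0.496 to 1.29. The midgut sum was thus lower on high sugar in libraries 49-54 and 55-63, and not higher in libraries 67-92. In libraries 13-21, where no member was called, it ran higher on high sugar with overlap. Its part in the result was not tested.

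Salivary gland markers, mostly glue proteins, fell in all 7 tested genes in libraries 49-54, with sums of 5.58 to 18.5 on high sugar, against 33.8 to 604. In libraries 55-63, where more members fell, 0 of 7 passed and the sums were 90.99 to 119, against 15.1 to 205. Muscle markers rose in 3 of 4 tested genes in libraries 67-92. Their sum was 44.7, 33.0, 62.5 and 20.1 on high sugar, against 16.2, 10.8, 16.1 and 17.1 in controls. It was highest in library 91 and, among high-sugar libraries, lowest in 92, the order seen for Jon66Ci and Jon99Cii, and their part in the result was not tested. Act57B, a muscle actin, changed by 0.99 (SE 0.23, adjusted p = 0.00377). In libraries 55-63 no muscle marker passed, and the sum was 9.31 to 10.2 on high sugar, against 5.85 to 9.08 in controls. In libraries 13-21 the muscle sum was 4.58 to 6.84, against 9.43 to 13.6, with 1 of 4 tested genes lower. In libraries 49-54 it was 3.09 to 5.48, against 2.99 to 3.79, with 1 gene higher and 1 lower.

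Of 4 tested haemocyte markers, 2 rose and 2 fell in libraries 55-63, 3 fell in libraries 49-54 and 0 passed in libraries 67-92. The Malpighian tubule marker Uro fell in libraries 49-54 and 67-92. It did not pass in libraries 55-63 (change -0.77, SE 0.40, limma adjusted p = 0.165). The summed tubule markers there were 1.45 to 2.73 on high sugar, against 3.23 to 5.99 in controls. In libraries 49-54 the sum was 2.45 to 2.54, against 17.5 to 25.7. In libraries 67-92 it was 0.815 to 4.02, against 2.99 to 10.5, and in libraries 13-21 7.42 to 13.6, against 10.5 to 14.7. Its part in the result was not tested. Of 4 tested trachea and cuticle markers 1 rose in libraries 67-92 and 2 fell in libraries 13-21.

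**Figure D4:**
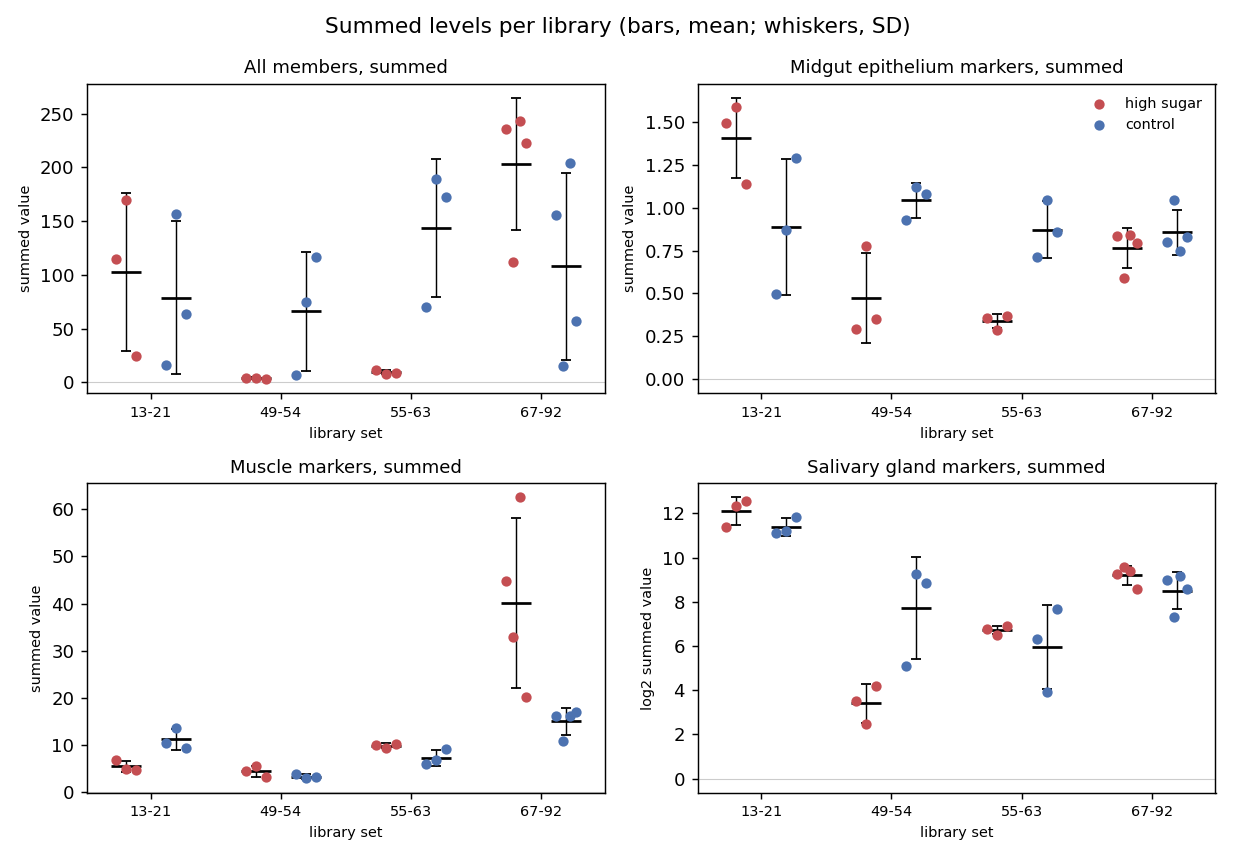
Summed value of all 38 members and of the midgut, muscle and salivary gland marker lists in each library, with the mean (bar) and SD (whisker) of each diet in each set, high sugar left of control. The salivary gland panel is on a log2 axis. Member sums are 3.24 to 11.6 on high sugar in libraries 49-54 and 55-63, and muscle sums are above all controls on high sugar in libraries 67-92.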

How the data were processed

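The authors deposited 1 table of 26 libraries. Its values are a ratio, a library's expression value over its upper quartile, scaled in 4 sets, per the values: the deposited table names no unit, and in each set the same number of features (2402, 2080, 2117 and 2464) reached 1 in every library. Genome build dm3, Cufflinks 1.1.0, TopHat 1.3.2 and Bowtie 0.12.7 are listed in the submitters' processing notes. Other steps were not given in the sources used here. Depth is unknown, and no counting interval is given.

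Members were found by name. They and the lists of other genes were chosen with earlier results of these data known. Values were taken as log2(value + 1). limma 3.58.1 (R 4.3.3), with a mean-variance trend, gave two-sided tests for 2428 features averaging 1 or more, adjusted over all of them by Benjamini-Hochberg. The effect over all libraries came from a model of set and diet. Effects within a set, and the F test of their difference, came from 8 means of set by diet, with the spread shared over 26 libraries. The script was tested on simulated data. A change on this scale understates that of low genes.

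Given by library were the 3 members of highest mean in each family and those with the 2 smallest adjusted p values of each test. Of other lists, at most the 3 tested genes of highest mean were given. LysE, Jon25Bii, LysX and Jon99Fi were given outside this rule. Libraries 67 and 83, and 75 and 91, were the closest pairs (SD of log2 differences 0.227 and 0.262, against 0.326 to 0.618 for other pairs of their set and diet), were not identical, may share a source, and were kept apart in the main fit. Gene order came from another build than dm3, so no coordinates are given.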

Additional observations from a re-analysis of the deposited data

Results flagged for a closer look

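The diet effect differed between the 4 sets for 12 of 18 tested members (limma, F test). The adjusted p was 0.00527 for Jon99Cii, 0.00536 for Jon65Aiv, 0.00546 for Jon66Ci, 0.00558 for Jon99Ciii, 0.00569 for Jon65Aiii and 0.00777 for alphaTry. It was 0.00902 for Jon25Biii, 0.0128 for Jon25Bi, 0.0262 for Jon25Bii and 0.0307 for epsilonTry. For gammaTry (0.0493) and deltaTry (0.0499) it was just below the threshold.

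A single library stood apart from the rest of its labelled group in 13 of 64 gene and group combinations examined. The rule was made for normal values, and many of these lie at or near 0, so the rate expected by chance is unknown. Where only 1 library of a group was above 0, as for LvpL in library 76 and LvpH in library 83, it was flagged whatever its value. The w1118 cg groups join 2 sets that are not on a common scale. In these groups the controls had high values of LysS (29.1), LysD (0.543) and LvpH (0.305) in library 14, and of Amy-p (0.446), LvpL (0.215) and Jon66Ci (7.52) in library 51. On high sugar they were high for LysD in library 19 (0.918), and for LvpH (0.725) and alphaTry (12.6) in library 20. In 60100 r4, LysD was low in control library 68 (3.28), Amy-p (0.244) and LvpL (0.0324) were high in high-sugar library 76, and LvpH was high in control library 83 (0.0839).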

How the results depend on the processing

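The 15 members' changes called within a set kept their direction in 255 alternatives and lost their call in 27. Counts that changed by over 1.5 times under an alternative were these, with the ranges for leaving out 1 library. In libraries 49-54 (2 lower) there were 1 with no filter, 4 with a common upper quartile, 4 with quantile normalization, 5 on that set alone, 9 with array weights, 10 with a pseudocount of 0.1, and 0 to 11 leaving out 1 library (0 without control 50 or 51, 11 without control 49). Of all features there, 248 of 2428 were lower in the main fit, 1044 of 10094 with no filter and 268 of 2387 on that set alone. With a common upper quartile, quantile normalization, array weights and a pseudocount of 0.1, 236, 361, 369 and 273 of 2428 were lower. Without control 49, 50 or 51 it was 230, 195 and 199 of 2428. In libraries 67-92 (6 higher) there were 13 with no filter (33 members), 10 with array weights, 1 in numbers 83-92 alone, 0 with a mean of at least 5 (5 members), and 5 to 8 leaving out 1 library. Of all features there, 409 of 2428 were higher in the main fit, 795 of 10094 with no filter and 800 of 2428 with array weights. In numbers 83-92 alone it was 116 of 2428, with a mean of at least 5 160 of 766, and leaving out 1 library 274 to 522 of 2428. In libraries 55-63 (7 lower) there were 4 with a mean of at least 5, 6 to 9 leaving out 1 library, and, with no filter, 6 lower and 1 higher, LysX. Of all features there, 126 of 2428 were lower in the main fit, 43 of 766 with that mean and 84 to 131 leaving out 1 library. With no filter 1038 of 10094 were lower and 529 higher. In libraries 13-21 there were 2 higher with array weights, where 95 of 2428 features were higher, against 52 in the main fit. Over all libraries there were 1 higher with array weights and 2 with no filter, and 1 lower with a pseudocount of 0.1, 7 without libraries 67-92, and 0 to 4 leaving out 1 library. Of all features, 556 of 2428 were higher with array weights and 783 of 10094 with no filter. Lower were 342 of 2428 with that pseudocount, 201 without libraries 67-92 and 286 to 375 leaving out 1 library. Members whose effect differed between sets (12) numbered 3 with a mean of at least 5, 16 of 33 with no filter, and 9 to 15 leaving out 1 library. Among all features 898 of 2428 differed in the main fit, 389 of 766 with that mean and 2149 of 10094 with no filter. The cause was not tested, except that a stricter filter tests fewer members. Median-of-ratios scaling moved the median of all features in libraries 67-92 to 0.18, against 0.03, and gave 7 members higher, with 676 features higher and 201 lower, against 409 and 360. Unknown depth limits what values near 0 can show. No paired analysis was possible because the diets share no library numbers.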
